A study of Mus musculus with 2 samples.

Results

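The subject is a set of 10 genes that give an epithelium its adhesion and its identity, namely *Epcam*, *Cdh1*, *Cldn3*, *Cldn4*, *Cldn7*, *Ocln*, *Esrp1*, *Elf3*, *Grhl2* and *Ovol1*. They were taken by name out of the 19465 genes of a spatial transcriptome of cerebellar tumors, and all 10 were present and passed the filter on low counts. The samples were 2 biological replicates, called section 1 (HP-F1) and section 2 (HP-B6), each a 5 µm section of fixed tissue profiled with Visium CytAssist. Both carry the genotype HP, the cell line label B6-HP and no treatment, so no control animal enters. All tests are between regions within sections, and section 2 is set against section 1 without a test. HP organoids are mouse mammary tumor organoids with HER2 V777L, a human HER2 transgene read from an actin promoter after Cre removes a stop cassette, together with PIK3CA H1047R. They were labelled with luciferase, passed through a clonal selection, and placed stereotactically in the cerebellum of syngeneic C57BL/6 mice, for which the methods give coordinates at 5 months of age. The tumors therefore grew from transplanted clusters in an immunocompetent host and had not spread there from a breast. The study used such sections to ask which genes mark the tumor, the invading edge and the normal cerebellum.

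Epithelial cells hold to each other through a stack of junctions. EpCAM is an adhesion molecule of epithelial cell surfaces that also stabilizes claudin-7, and E-cadherin, the product of *Cdh1*, forms the adherens junctions. Claudins and occludin are the membrane proteins of tight junctions, which seal the space between cells. The regulators act upstream of these proteins: ESRP1 directs epithelial splicing, ELF3 is an ETS factor of epithelia, GRHL2 activates junction genes such as *Cdh1* and *Cldn4*, and OVOL1 is a zinc finger repressor of mesenchymal genes. SNAI and ZEB factors, which repress junction genes during epithelial–mesenchymal transition, bind the E-box CACCTG. Normal cerebellar neurons and glia are not epithelia, whereas the choroid plexus is one, and the endothelium of brain vessels also has tight junctions.

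The promoters of 4 members are shown because junction genes are the known targets of those E-box repressors, and because *Cldn3* and *Cldn4*, 39.3 kb apart on chromosome 5, differ in this motif. Each is the 250 bases before the annotated start, from RefSeq on build GRCm38.p6, printed 5′ to 3′ on the strand of the gene, with CACCTG on either strand (CAGGTG when read on the other) in capitals. The windows are chr17:87635729-87635978 on the plus strand for *Epcam*, chr5:134946935-134947184 on the minus strand for *Cldn4*, chr5:134985964-134986213 on the plus strand for *Cldn3*, and chr1:135258473-135258722 on the minus strand for *Elf3*.
Epcam: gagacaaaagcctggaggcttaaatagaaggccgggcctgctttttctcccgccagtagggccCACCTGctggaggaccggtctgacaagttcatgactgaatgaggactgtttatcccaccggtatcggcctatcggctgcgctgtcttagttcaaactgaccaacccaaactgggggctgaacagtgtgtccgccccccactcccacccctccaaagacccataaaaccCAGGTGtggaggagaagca
Cldn4: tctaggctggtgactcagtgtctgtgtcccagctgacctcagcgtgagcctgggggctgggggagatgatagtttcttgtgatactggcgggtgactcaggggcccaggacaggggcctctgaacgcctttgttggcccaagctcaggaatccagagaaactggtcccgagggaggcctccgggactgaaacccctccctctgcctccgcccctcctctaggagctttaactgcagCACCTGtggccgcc
Cldn3: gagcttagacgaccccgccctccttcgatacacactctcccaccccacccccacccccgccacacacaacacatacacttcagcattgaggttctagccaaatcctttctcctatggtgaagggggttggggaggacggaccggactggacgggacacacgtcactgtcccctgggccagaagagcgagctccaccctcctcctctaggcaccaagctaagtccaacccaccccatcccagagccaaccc
Elf3: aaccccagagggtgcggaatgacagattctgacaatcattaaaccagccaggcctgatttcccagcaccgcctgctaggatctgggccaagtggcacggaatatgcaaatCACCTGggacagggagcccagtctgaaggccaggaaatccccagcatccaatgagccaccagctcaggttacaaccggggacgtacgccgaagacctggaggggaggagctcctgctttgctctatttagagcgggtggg
The E-box began 187 and 19 bases before the start in *Epcam*, 14 bases before it in *Cldn4* and 140 bases before it in *Elf3*, and it was not in the *Cldn3* window. RefSeq windows matched 6 members, with 8 windows in all because *Cldn7* and *Ocln* have a pair each, and *Cdh1*, *Esrp1*, *Grhl2* and *Ovol1* have no window in the table. The E-box was in 5 of the 8 windows, from *Cldn4*, *Cldn7*, *Elf3*, *Epcam* and *Ocln*, against 17.2% of all 32851 windows in the table. The GRHL motif AACCGGTT was in 0 of the 8 windows, against 0.116% of all windows. A motif this rare would be absent from nearly any 8 windows, so that count says nothing about GRHL2.

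The regions were drawn in each section from the share of UMIs (unique molecular identifiers, each standing for 1 captured molecule) that belonged to neural markers, without any of the 10 genes. Tumor is the large neural-poor group of spots, edge is the band of 3 array steps around it, and neural is the neural-rich tissue farther out. A spot covers several cells. Section 1 gave 770 tumor, 188 edge and 2353 neural spots, and section 2 gave 872, 324 and 2753. Levels are UMIs of a gene in each 1000000 UMIs summed over a region (CPM), scaled by TMM, a factor that evens the composition of libraries; unscaled CPM leaves that factor out. Depth differed between regions, with medians of 54185.5 and 40783 UMIs per tumor spot but 7562 and 9706 per neural spot. The sections shared 3096 spot barcodes, which are fixed positions of the array.

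**Figure D1:**
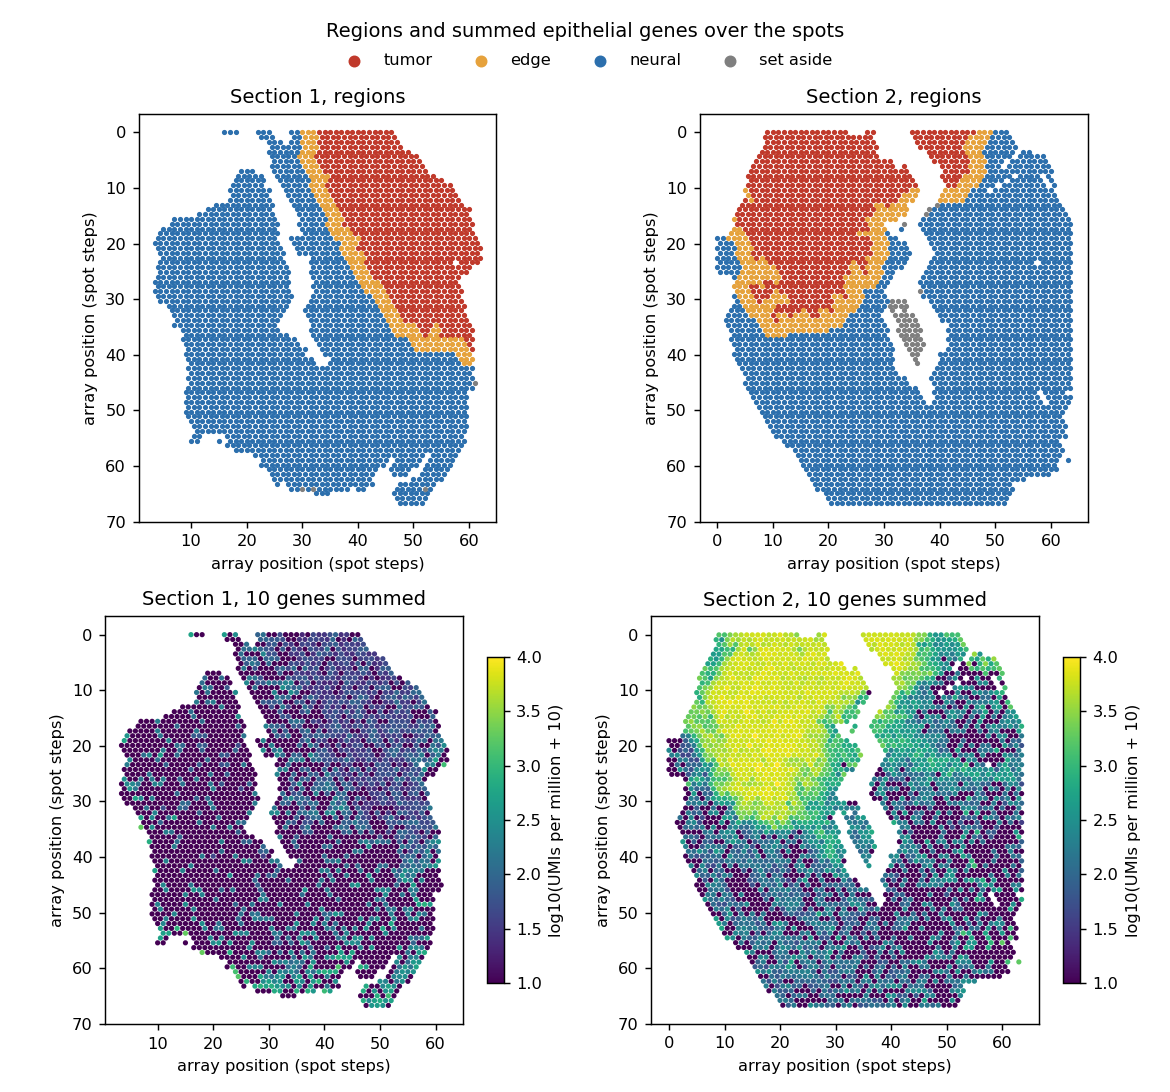
Both sections are mapped on the spot array, with axes in array steps. Upper maps show the tumor, edge, neural and set-aside spots, and lower maps show log10 of the summed unscaled CPM of the 10 genes plus 10, on 1 color scale: section 2 is bright over its tumor groups, and section 1 has no bright area in its tumor region.

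Between the sections, the tumor regions differed widely in cell type markers. Summed keratins of mammary epithelium (*Krt8*, *Krt19*, *Krt7*, *Krt14*, *Krt5* and *Krt17*) reached 8459 CPM in the tumor region of section 2 but 32.4 CPM in that of section 1. All 6 keratins were detected there, with *Krt8* at 25 CPM and *Krt17* at 0.0560 CPM, and *Krt17* was at 0 in the edge of section 1. *Krt8* was lower outside that tumor region, at 5.29 CPM in edge and 4.29 CPM in neural tissue of section 1. The 7 fibroblast and meningeal markers, led by collagens, summed to 61003 CPM in the tumor region of section 1 and 618 CPM in that of section 2, and macrophage markers to 5243 and 1448 CPM. Neural markers were low in both, at 1090 and 1271 CPM, which the rule that drew the regions requires. By its keratins and fibroblast markers, the tumor region of section 1 therefore did not look like a mammary epithelial tumor. The word tumor refers below to the neural-poor region in both sections. Whether epithelial cells were few there or held little RNA of these genes cannot be told apart in spots that pool cells.

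The adhesion molecules *Epcam* and *Cdh1* separated the sections at once. *Epcam* (chr17:87635979-87651127) was at 7.05 CPM in tumor, 9.14 in edge and 3.35 in neural tissue of section 1, and at 2043, 576 and 38.9 CPM in section 2. The order in section 2 was tumor, edge, neural, with no overlap of counting intervals, and in section 1 tumor and edge could not be ordered. *Cdh1* (chr8:106603350-106670247) was at 7.56, 4.09 and 3.91 CPM in section 1 and at 463, 124 and 11.1 CPM in section 2. In the tumor of section 2 against its neural tissue *Epcam* was 52.5-fold higher (95% interval 49.6 to 55.6) and *Cdh1* 41.7-fold (37.5 to 46.6). All intervals on levels and ratios are exact Poisson or binomial intervals that cover counting error only, not the spread between animals. In section 1 these were the only members whose interval lay above 1, at 2.11-fold (1.63 to 2.75) for *Epcam* and 1.93-fold (1.52 to 2.48) for *Cdh1*. *Epcam* and *Cdh1* thus had a small excess of tumor over neural tissue in section 1, at levels that stayed under 10 CPM. For *Epcam* the edge of section 1 had such an excess too, at 2.73-fold over neural tissue (1.80 to 4.07).

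The claudins followed the same order in section 2. *Cldn7* (chr11:69964779-69967886), the claudin that partners with EpCAM, was at 1354 CPM in tumor, 294 in edge and 24.3 in neural tissue of section 2. In section 1 it was at 2.13, 3.85 and 3.22 CPM, so that its tumor level was 0.660 of the neural one (0.474 to 0.921). *Cldn4* (chr5:134945123-134946934) was at 952, 179 and 20.9 CPM in section 2 and at 3.11, 5.53 and 3.09 in section 1. *Cldn4* and *Cldn7* are claudins of many simple epithelia, the mammary gland among them. *Cldn3* (chr5:134986214-134987476), which lies beside *Cldn4*, was at 702, 125 and 18.6 CPM in section 2 and at 2.60, 3.85 and 3.48 in section 1. Tumor over neural in section 2 came to 55.7-fold for *Cldn7* (51.8 to 59.9), 45.6-fold for *Cldn4* (42.2 to 49.4) and 37.8-fold for *Cldn3* (34.8 to 41.2). In section 1 the intervals of *Cldn3* and *Cldn4* covered 1.

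Occludin differed from the claudins in that neural tissue held much of it. *Ocln* (chr13:100496504-100552718) was at 79.6 CPM in tumor, 22.8 in edge and 17.7 in neural tissue of section 2, a tumor excess of 4.5-fold (4.10 to 4.95). In section 1 it was at 4.98, 6.01 and 9.92 CPM, with tumor at 0.502 of neural (0.411 to 0.613). Its ratio of neural to tumor level was the highest of the 10 genes in both sections, and in section 2 its neural level was 22.2% of the tumor level (20.2 to 24.4) against 1.80% to 8.82% for the other 9.

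The regulators were high in the tumor of section 2 as well. *Esrp1* (chr4:11331933-11386783), the splicing factor, was at 403 CPM in tumor, 104 in edge and 8.53 in neural tissue of section 2, and at 1.96, 2.41 and 2.53 in section 1. *Elf3* (chr1:135253574-135258472) was at 215, 36.1 and 6.06 CPM in section 2 and at 1.46, 3.37 and 1.76 in section 1. Both had section 1 intervals of tumor over neural that covered 1. *Grhl2* (chr15:37232821-37363569), the activator of junction genes, was at 170, 35.1 and 6.45 CPM in section 2 and at 3.08, 3.37 and 4.59 in section 1, with tumor at 0.670 of neural there (0.509 to 0.883). *Ovol1* (chr19:5549137-5560575), the repressor, was in section 2 at 22.9, 5.67 and 2.02 CPM, against 1.82, 2.16 and 2.62 in section 1, where its interval covered 1. The tumor excess in section 2 was 47.3-fold for *Esrp1* (41.8 to 53.6), 35.6-fold for *Elf3* (30.7 to 41.4), 26.4-fold for *Grhl2* (22.9 to 30.6) and 11.3-fold for *Ovol1* (8.73 to 14.9).

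**Figure D2:**
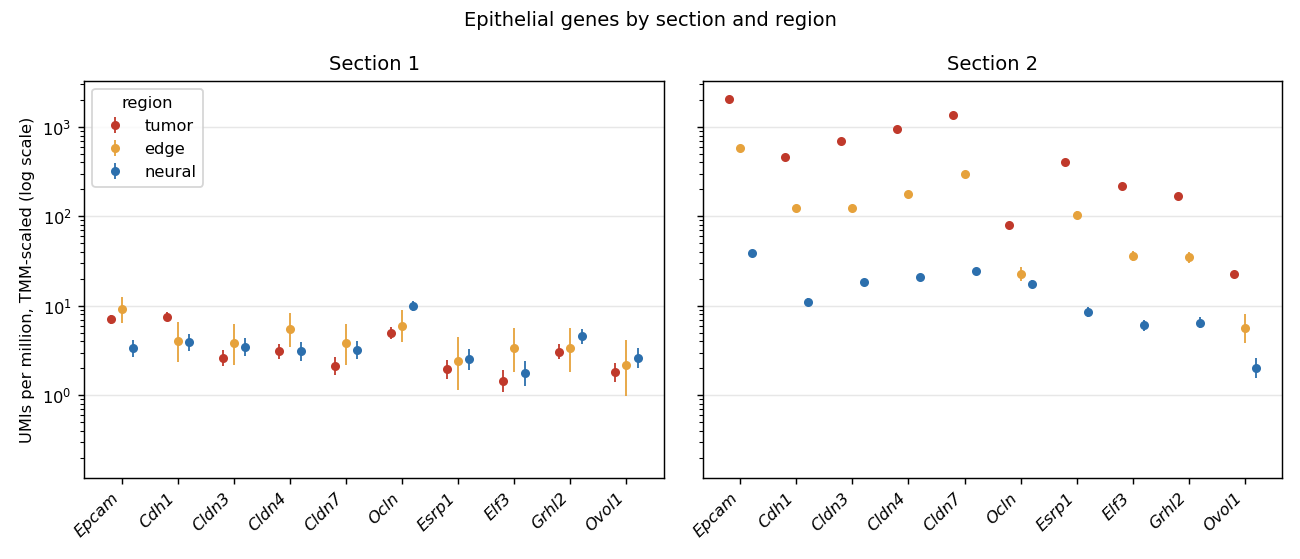
TMM-scaled CPM of each gene on a log axis is drawn for tumor, edge and neural tissue, with 1 panel per section and bars for the 95% Poisson interval of the counts. All 10 genes descend from tumor through edge to neural tissue in section 2, whereas in section 1 every level lies under 10 CPM and the regions intermingle.

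Summed over the 10 genes, the level was 35.7 CPM in tumor, 43.8 in edge and 38.5 in neural tissue of section 1, and 6405, 1502 and 155 in section 2. Tumor over neural was therefore 0.929 (0.852 to 1.01) in section 1 and 41.5 (40.3 to 42.7) in section 2, or -0.10 and 5.37 on a log2 scale with a pseudocount of 0.5 CPM, a mean of 2.63 ± 3.87 (SD, n = 2). The spread between the replicates exceeded their mean. By that log2 scale 10 of 10 members lay more than 1 unit higher in tumor than in neural tissue in section 2, where 16.9% of all 19230 tested genes did, and 0 of 10 in section 1, where 16.9% of all genes did too. *Cldn7* had the fifth largest of all such differences in section 2, *Epcam* was at rank 11 and *Ocln* at rank 1004. The median of the members was 5.26 in section 2 and -0.33 in section 1, beside medians of all genes at -0.10 and -0.13.

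When both sections entered 1 test, no member passed it. With sections as blocks, edgeR's quasi-likelihood test called 0 of 10 members between tumor and neural tissue at a Benjamini-Hochberg adjusted p under 0.05, where it called 30.1% of all genes, with 14.5% of all genes higher in tumor. Only *Epcam* had an unadjusted p under 0.05, at 0.0494 from that edgeR test, with a log2 fold change of 3.46 (SE 1.30) and an adjusted p of 0.111. *Cdh1* had a log2 fold change of 2.98 (SE 1.26, edgeR adjusted p = 0.140), and *Ocln* had the smallest, at 0.70 (SE 0.84, edgeR adjusted p = 0.535). The median log2 fold change of the members was 2.67, beside -0.12 for all genes. DESeq2 on the same sums called 6 members as higher in tumor, namely *Epcam*, *Cdh1*, *Cldn3*, *Cldn4*, *Cldn7* and *Elf3*, with DESeq2 adjusted p from 0.000769 to 0.0419, where it called 37.2% of all genes and 21.6% as higher in tumor. In section 1 alone 7 of the 10 lay below 0, and *Epcam*, *Cdh1* and *Cldn4* did not. Many genes did so there: 56.7% of all genes lay below *Cldn4*, which was at 0.006 log2 units.

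The other region pairs gave no call either. Between tumor and edge the edgeR test called 0 of 10 members, where it called 4.37% of all genes (0.348% as higher in tumor), with adjusted p from 0.429 to 0.595. Between edge and neural tissue it called 0 of 10, where it called 5.47% of all genes (2.71% as higher in the edge), with adjusted p from 0.327 to 0.895. In both pairs 0 members had an unadjusted p under 0.05, and DESeq2 called 0. Within section 2 alone, which allows no test, 10 of 10 members lay over 1 log2 unit higher in tumor than in edge (6.43% of all genes), and 9 of 10, all but *Ocln*, higher in edge than in neural tissue (10.6%). Within section 1 the counts were 0 of 10 (6.48%) and 1 of 10 (10.4%), the latter being *Epcam* at 1.32 log2 units.

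Section 2 over section 1 was 1 sample against another and was not tested. In the tumor region 10 of 10 members were more than 1 log2 unit higher in section 2, where 10.4% of all genes were. *Cldn7* had the largest ratio, 636-fold (508 to 808), followed by *Cldn4* at 306-fold (254 to 372), *Epcam* at 290-fold (256 to 329) and *Cldn3* at 270-fold (220 to 334), the intervals of the latter 3 overlapping. *Esrp1* was 206-fold, *Elf3* 148-fold, *Cdh1* 61.3-fold and *Grhl2* 55.3-fold higher. *Ocln*, at 16-fold (13.7 to 18.7), and *Ovol1*, at 12.6-fold (9.75 to 16.5), had the smallest ratios. In the edge 10 of 10 were above 1 log2 unit (5.33% of all genes). Even in neural tissue 7 of 10 were (1.39% of all genes), led by *Epcam* at 11.6-fold (9.24 to 14.8), while *Ovol1* stood at 0.771-fold (0.532 to 1.12).

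The members did not thin out equally toward the edge of section 2. The edge kept 28.2% of the tumor level for *Epcam* (27.2 to 29.2), 26.8% for *Cdh1* (24.8 to 28.9), 25.9% for *Esrp1* (23.8 to 28.1) and 28.7% for *Ocln* (23.9 to 34.3). It kept 17.8% for *Cldn3* (16.5 to 19.2), 18.8% for *Cldn4* (17.7 to 20.0) and 16.8% for *Elf3* (14.5 to 19.3). The adhesion genes and *Esrp1* thus lay above *Cldn3*, *Cldn4* and *Elf3* by more than counting error within this section. *Cldn7* at 21.7% (20.6 to 22.8), *Grhl2* at 20.6% (17.8 to 23.7) and *Ovol1* at 24.8% (16.8 to 35.3) fell between or overlapped both sets.

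**Figure D3:**
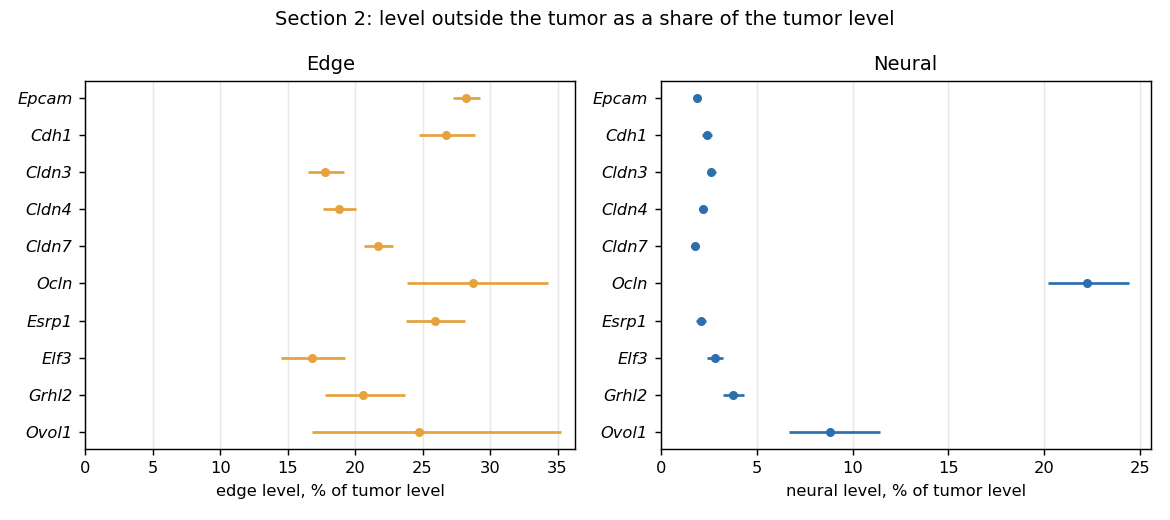
For section 2 the level in the edge and in neural tissue is drawn as a percent of the tumor level of the same gene, on a linear axis, with bars for 95% counting intervals. *Elf3* and *Cldn3* keep the least in the edge, *Epcam* and *Ocln* the most, and *Ocln* stands apart in neural tissue at 22.2%.

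Rings of 1 array step around the border of section 2 gave the gradient in more detail, in unscaled CPM. Summed over the 10 genes the level was 5831 at 13 or more steps inside the tumor, 3829 in its outermost layer, 1997 at the first step outside and 657 at the third. Farther out it was 147 at 13 to 20 steps and 83.0 beyond 30 steps. *Epcam* went from 1359 in the outermost tumor layer through 779, 464 and 257 at the first 3 steps outside to 12.5 beyond 30 steps. In section 1 the sum stayed between 23.6 and 75.1 in all rings, and *Epcam* was at 10.8, 7.54 and 12.9 at those 3 steps and 4.76 beyond 30 steps. Far from the tumor, then, *Epcam* was still higher in section 2 than in section 1, though close to it on the scale of the tumor levels.

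Against the level 4 or more steps inside the tumor, the outermost tumor layer of section 2 held 73.6% of *Epcam* (71.6 to 75.7) but 52.5% of *Cldn4* (50.1 to 55.0) and 55.7% of *Cldn3* (52.8 to 58.8). One step outside, *Epcam* was at 42.2%, *Cdh1* at 38.9% and *Esrp1* at 37.7%, while *Cldn3* was at 24.8%, *Cldn4* at 26.4% and *Elf3* at 19.4% (15.8 to 23.5). At the third step the order was no longer that of the edge, with *Esrp1* at 7.86% (5.61 to 10.7), *Cldn4* at 10.2% (8.45 to 12.1) and *Elf3* at 9.34% (6.09 to 13.7), whose intervals overlapped. *Ocln* reached 33.0% at the first step and 29.0% at the third (19.5 to 41.5), where the other 9 were at 7.86% to 13.9%, and it did not go below 14.5 unscaled CPM in any ring.

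**Figure D4:**
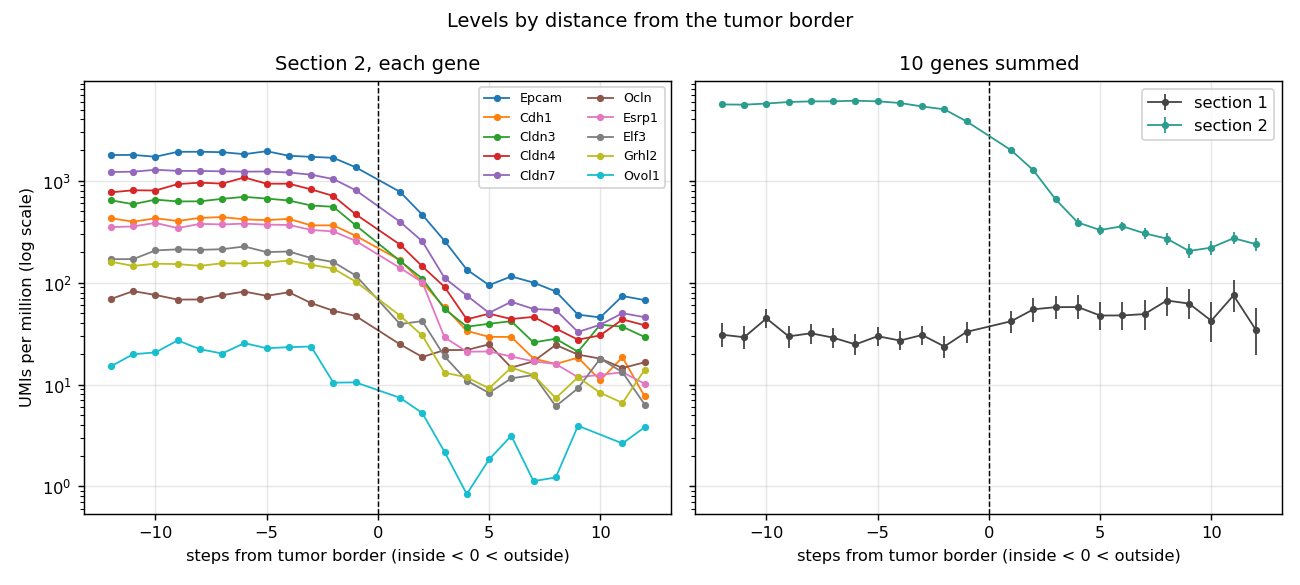
Levels in unscaled CPM (UMIs in each 1000000) on a log axis are plotted against distance from the tumor border in array steps, negative inside the tumor, for both sections; rings without a UMI are not drawn. In section 2 all genes drop across the border with *Ocln* the flattest, and in section 1 the sum shows no drop there.

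Spot by spot, the 10 genes were present together in the tumor of section 2. Of its 872 tumor spots 806 (92.4%) held a UMI of at least 8 members, 394 held all 10, and 2 held none, with a median of 232 UMIs of the 10 genes per spot. In section 1 no tumor spot held 8 members, the most in any being 6, and 176 of 770 (22.9%) held none although these spots were deeper. In the edge of section 2, 72 of 324 spots (22.2%) held at least 8. Neural tissue of section 2 had 9 such spots.

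Shares of spots with a UMI depend on depth and were therefore also taken after thinning each spot to 5000 UMIs. The median share over the members was 97.5% in tumor, 55.4% in edge and 13.2% in neural spots of section 2, and 79.8%, 31% and 6.30% after thinning. In section 1 it was 11.8%, 7.45% and 3.17%, and 1.84%, 2.69% and 1.83% after thinning. The thinned shares of tumor and neural spots in section 1 were thus alike in their medians, with *Epcam* at 2.1% (1.21 to 3.39) and 1.77% (1.20 to 2.51), and a higher share in its tumor was not detectable at this depth. *Ocln* was the reverse there, at 2.23% (1.31 to 3.55) of tumor and 5.24% (4.23 to 6.41) of neural spots. *Epcam* kept 97.9% of tumor spots in section 2 after thinning (96.7 to 98.8), against 14.0% of neural spots (12.6 to 15.5). *Ocln* went from 86.2% to 26.4% and *Ovol1* from 49.4% to 9.22% in the same tumor spots. In section 1, 9 tumor, 2 edge and 655 neural spots were too shallow to thin, and in section 2 these numbers were 4, 27 and 348.

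Across the 872 tumor spots of section 2 the members varied together. Over the 45 pairs the Pearson r of log2(unscaled CPM + 100) had a median of 0.51 and ran from 0.16 to 0.81, the highest being that of *Epcam* with *Cldn7*. Pairs with *Ocln* ran from 0.16 to 0.43 and pairs with *Ovol1* from 0.16 to 0.29. Both genes had the fewest UMIs per tumor spot, 2.78 and 0.798, against 71.2 for *Epcam*, and counts that low limit r. All points share 1 library, and every member was lower in the spots next to the border. Over the 573 spots 4 or more steps inside, the median was 0.48, with a range of 0.10 to 0.76. Why the members varied together was not tested. Over the 770 tumor spots of section 1, where most spots held no UMI of a given member, the median was 0.00295 and the range -0.07 to 0.17.

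**Figure D5:**
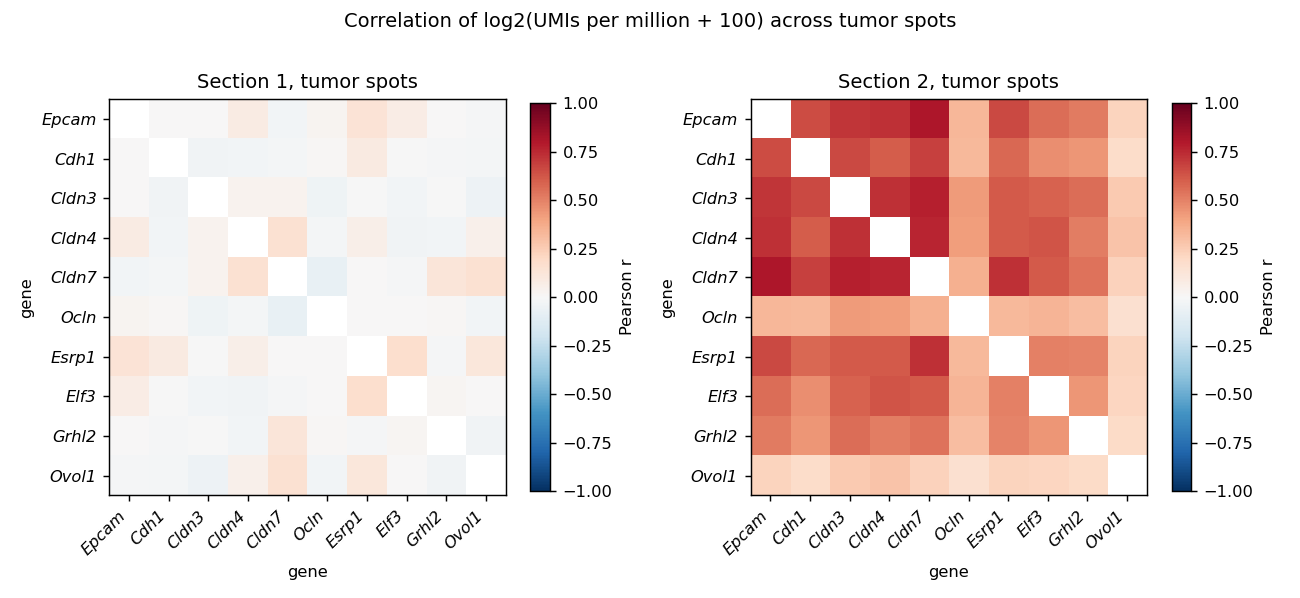
Pearson r between each pair of the 10 genes across tumor spots is shown as a color from blue to red for both sections, with n = 770 and n = 872 spots. Section 2 is positive in all 45 pairs and weakest for *Ocln* and *Ovol1*, which had the fewest UMIs there, and section 1 is near 0.

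Among 8640 genes with a UMI in at least 50% of those spots, the 5 whose pattern was most like the mean of the 10 members were *Gja1* (r = 0.88), *Spint2*, *Wfdc18*, *Sorbs2* and *Krt7* (each r = 0.86). *Gja1* encodes a connexin of gap junctions, *Spint2* an inhibitor of epithelial surface proteases and *Krt7* a keratin of simple epithelia. By single member, *Krt7* was the most like *Epcam* (r = 0.80), *Wfdc18* was the most like *Cldn7* (r = 0.82) and *Grhl2* (r = 0.61), *Gja1* was the most like *Cldn3* and *Cldn4* (each r = 0.80), and *Spint2* was the most like *Cdh1* and *Esrp1* (each r = 0.69). *Sorbs2* was the most like *Elf3* (r = 0.64). For *Ocln* the most alike was *Nedd9* at r = 0.45 and for *Ovol1* it was *Thbs1* at r = 0.29.

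The tumor of section 2 lay in 2 unconnected groups of 793 and 79 spots, and both held the members. *Epcam* was at 1764 unscaled CPM in the larger group and 1730 in the smaller, with overlapping intervals. *Cldn4* was higher in the larger group, at 833 (823 to 843) against 665 (634 to 697), and so was *Elf3*, at 190 (185 to 195) against 136 (123 to 151). *Cdh1* was lower there, at 396 (390 to 403) against 439 (414 to 465), as was *Cldn7*, at 1161 (1149 to 1172) against 1250 (1208 to 1294). Spots of a group share 1 animal, so these differences exceed counting error only. How many of all genes separated the 2 groups in this way was not counted.

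The choroid plexus, an epithelium native to the brain, carried part of the set. In section 2 a separate group of 45 spots with choroid plexus markers held *Ocln* at 64.5 unscaled CPM (44.6 to 90.1) against 17.7 (16.2 to 19.3) in unmarked neural spots, and *Cldn3* at 49.3 (32.2 to 72.2) against 18.7 (17.2 to 20.3). *Epcam*, at 26.5 (14.5 to 44.5) against 38.7 (36.5 to 41.0), and *Cldn4* and *Cldn7*, each at 15.2, were not higher in that group. The unmarked spots reach close to the tumor, with *Epcam* at 134 at 4 steps, and distance was not matched. In the farthest ring, from 31 steps on, *Epcam* was at 12.5 (10.3 to 15.2), *Cldn4* at 10.7 and *Cldn7* at 8.93. These lay below the levels of the group, with overlapping intervals. The result for *Epcam* also depended on the marked spots taken. Over all 77 marked spots of section 2, neural ones included, *Epcam* was higher than in unmarked neural spots, at 57.0 (43.3 to 73.6). There the intervals of *Cldn4* and *Cldn7* still overlapped those of unmarked spots. In section 1, 55 marked spots held *Ocln* at 23.2 (12.7 to 39.0) against 11.1 (9.66 to 12.7). *Cldn4* was higher there as well, on 7 UMIs, at 11.6 (4.67 to 23.9) against 3.32 (2.56 to 4.23). *Ocln* was thus higher in spots with choroid plexus markers in both sections.

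Vessel-marked neural spots, the top 10% by endothelial markers, did not have more *Ocln* by more than counting error. It was at 12 unscaled CPM (6.88 to 19.5) against 11.4 (9.93 to 13) in the other neural spots of section 1, and at 18.5 (12.9 to 25.7) against 17.9 (16.4 to 19.6) in section 2. The endothelial claudin *Cldn5* was at 263 against 68.8 in the same spots of section 2. It is one of the endothelial markers that chose these spots, so its excess follows from the choice. *Epcam* was higher in the vessel-marked spots of section 2, at 80.3 (68.0 to 94.1) against 36.8 (34.6 to 39.1). So were *Cdh1* (21.1 against 10.6), *Cldn3* (28.0 against 18.3), *Cldn7* (40.2 against 23.7) and *Esrp1* (17.4 against 8.09), with no overlap of intervals. For *Cldn4*, *Elf3*, *Grhl2* and *Ovol1* the intervals overlapped. The vessel-marked spots of section 2 were shallower, with a median of 6340 UMIs against 10164. The share of all genes that differed in this way was not counted, and distance from the tumor was not matched. Endothelial markers summed to 434 CPM in tumor, 499 in edge and 308 in neural tissue of section 2. A link of the members to vessels was not tested.

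Neural tissue of section 2 also held single spots rich in the set. By limits chosen after the values were seen, 39 of 2753 neural spots had at least 10 UMIs of the 10 genes and over 1000 unscaled CPM. Of these, 38 lay within 12 steps of the tumor border, the nearest at 4 steps, and 1 lay at 43 steps. In section 1 no neural spot met these limits.

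Other epithelial genes had the pattern of the set in section 2. Over all genes, 16.9% were more than 1 log2 unit higher in tumor than in neural tissue in each section. The edgeR test called 14.5% of all genes as higher in tumor. Of 9 other adherens and desmosome genes 9 were over 1 log2 unit higher in tumor than in neural tissue of section 2 and 1 in section 1, and the edgeR test with Benjamini-Hochberg adjustment called 1 as higher in tumor. That gene was *Pkp1*, a desmosomal plakophilin, at 56.2 and 895 CPM in the tumors of sections 1 and 2 against 3.09 and 18.9 in neural tissue, with a log2 fold change of 4.90 (SE 0.43, edgeR adjusted p = 0.00346). *Jup*, which encodes plakoglobin, had the smallest difference in section 2, at 2.09 log2 units, and -1.02 in section 1.

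Of 12 other tight junction genes, 11 were over 1 log2 unit higher in tumor of section 2 and 1 in section 1, and 1 was called, *F11r* (junctional adhesion molecule A, log2 fold change 2.41, SE 0.37, edgeR adjusted p = 0.0122). *Marveld3*, a relative of occludin, led section 2 at 4.36 log2 units and had -0.61 in section 1, and *Ildr1* of tricellular junctions had 4.19 and -0.12. *Cldn8* had the smallest, at 0.97 and -0.69. Of 6 genes of the surface protease matriptase, its partners and epithelial sorting, 6 and 1 were over 1 unit and 1 was called, the inhibitor *Spint1* (2.14, SE 0.54, edgeR adjusted p = 0.0454). *St14*, matriptase itself, had 5.05 in section 2 and 0.33 in section 1, and its activator *Prss8* 4.89 and -0.66.

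Of 8 further epithelial regulators, 8 and 1 were over 1 log2 unit and 1 was called, *Klf5* (3.63, SE 0.60, edgeR adjusted p = 0.0150). *Ehf*, an ETS factor related to *Elf3*, led with 5.59 in section 2 and 0.23 in section 1. *Esrp2*, the paralog of *Esrp1*, had 5.18 and -0.31, and *Grhl1*, related to *Grhl2*, the smallest at 2.14 and -0.47. So 1 gene in each of these 4 lists passed the test where no member did, beside 14.5% of all genes called as higher in tumor. Each of the 4 had a higher tumor level in section 1 too, at 1.73 log2 units for *F11r*, 1.09 for *Spint1*, 2.38 for *Klf5* and 3.98 for *Pkp1*. The median of each of the 4 lists in section 1 lay between -0.63 and -0.11.

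Mesenchymal counterparts, whose products repress or replace epithelial ones, had another pattern. Of 10 listed genes 9 could be tested, because *Twist2* was not among the genes measured. Of these, 7 were over 1 log2 unit higher in the tumor than in neural tissue of section 1 against 3 in section 2. Over all genes 16.9% were in each section, and 14.5% were called as higher in tumor by the edgeR test. The edgeR test called 3 as higher in tumor, *Snai2* (log2 fold change 3.42, SE 0.41, edgeR adjusted p = 0.00671), *Twist1* (3.53, SE 0.43, edgeR adjusted p = 0.00679) and *Snai1* (3.31, SE 0.48, edgeR adjusted p = 0.0110). *Snai2*, an E-box repressor, was at 57.9 and 57.4 CPM in the tumors of sections 1 and 2, with 5.41 and 5.37 in neural tissue. *Twist1* was at 71.4 and 18.6 CPM in tumor and *Prrx1* at 258 and 20.7 CPM, the latter next to 20.7 CPM in neural tissue of section 2. *Zeb1* and *Cdh2* were not higher in either tumor. Their tumor over neural log2 ratios in sections 1 and 2 were -0.03 and -1.79 for *Zeb1* and -0.78 and -0.58 for *Cdh2*. *Zeb2*, at 1.19 and -0.80, and *Cdh11*, at 3.95 and -0.80, were higher in the tumor of section 1 only. In the tumor region 7 of the 9 were over 1 log2 unit lower in section 2 than in section 1. As much higher were 0 of the 9, all 10 members and 10.4% of all genes. The median of the 9 was -1.85 log2 units, beside -0.06 for all genes, and the share of all genes as much lower was not counted. The fibroblast markers given above moved with the mesenchymal genes, and their part in the difference was not tested.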

How the data were processed

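Spatial counts came from 2 sections. Per the labels and methods, the authors ran Space Ranger 2.1.1 on build mm10 and deposited raw UMI counts per gene and spot under tissue, 63986887 and 71878333 UMIs over 3406 and 4017 spots, without normalization. The probe panel reads a short stretch of each transcript, so levels are compared within a gene only, and reads of close relatives could be shared.

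The members and lists were chosen with earlier results of these data known. Spots under 500 UMIs or 10 genes were removed (91 and 18). For each section an Otsu threshold on the log2 unscaled CPM of 23 neural markers split the spots; tumor was any neural-poor connected group of at least 50 spots with enclosed groups under 20 filled in, edge the spots within 3 steps, and 4 and 50 spots were set aside. The study's own clusters were not used here. UMIs were summed into 6 libraries and tested with edgeR 4.0.16 (filterByExpr, TMM, robust quasi-likelihood, section as a block because regions of a section come from 1 animal; R 4.3.3, limma 3.58.1), with Benjamini-Hochberg adjustment over 19230 genes. The replicate block lowered the common dispersion from 0.150 to 0.0894. TMM factors ran from 0.862 to 1.15. Scripts were tested on simulated data first. Named were all members, in each list the genes with the 2 largest and the smallest tumor difference in section 2, and the genes most like the members. *F11r*, *Klf5* and *Snai1* were added because the test called them. After their values were seen, a few opposed genes and *Zeb1*, *Zeb2*, *Cdh2* and *Cdh11* were added. Some results under this rule are not reported here. Alternatives were DESeq2 1.42.0, other scalings, filters, thresholds, edge widths and leaving out a section. Python 3.11.15 drew the figures with matplotlib 3.10.9. Promoters and gene positions came from RefSeq (GRCm38.p6).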

Additional observations from a re-analysis of the deposited data

How the results depend on the processing

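Of 390 values of members under 13 alternatives with a test, 378 kept their direction and side of the threshold. DESeq2 moved 6 of them, calling 6 members between tumor and neural tissue in place of 0, while its calls over all genes there went from 5796 (2794 higher) to 7154 (4160 higher). Another 6, all uncalled and between edge and neural tissue, turned sign: with the higher neural threshold *Cldn7* at -0.10, *Ocln* at 0.24, *Esrp1* at -0.013 and *Elf3* at -0.38, with an edge of 5 steps *Ovol1* at -0.10, and without the replicate block, that is without pairing by section, *Ocln* at 0.074. Without the block 0 members were called in each comparison. Over the edgeR alternatives adjusted p of the members ran from 0.0740 to 0.717 between tumor and neural tissue, from 0.152 to 0.769 between tumor and edge, and from 0.301 to 0.999 between edge and neural tissue. With 1 section left no test was possible: the summed tumor over neural log2 ratio ran from -0.10 to 5.37, and 7 of 10 members were below 0 without replicate 2 (section 2) and 0 without replicate 1 (section 1). The median of all genes was below 0 in both sections, at -0.13 in section 1 and -0.10 in section 2. Over the other settings the summed ratio stayed between -0.47 and 0.22 in section 1 and between 5.11 and 5.51 in section 2. Thinning to 2000 UMIs moved the median share of spots to 0.784% in tumor, 0.798% in edge and 1.11% in neural spots of section 1, and to 50.6%, 16.8% and 3.31% in section 2. Over all genes, scaling by library size alone split the tumor against neural calls into 1906 higher and 4715 lower in place of 2794 and 3002, with a median log2 of -0.43. Calls between tumor and edge went from 841 (67 higher) to 2338 (830 higher) with DESeq2, 1272 with library size alone, 2963 (1038 higher) with the higher threshold and 0 with the lower (3114 at an unadjusted p under 0.05). Calls between edge and neural tissue went from 1051 to 3278 with DESeq2, 655 without the outermost tumor layer, and 0 with the higher threshold or an edge of 5 steps (3160 and 4748 at an unadjusted p under 0.05). The cause was not tested. Counts of a few UMIs limit what section 1 can show.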

Other observations

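Genes with the most opposed pattern to the mean of the 10 members across the 872 tumor spots of section 2 were *Fth1* (r = -0.84), *Fabp5* (r = -0.83) and *Gpnmb* (r = -0.83), among 8640 genes compared; *Fth1* encodes the ferritin heavy chain that stores iron, *Fabp5* a fatty acid binding protein and *Gpnmb* a membrane glycoprotein of lysosome-rich macrophages. Plasma cell markers summed to 787 CPM in the tumor region of section 1, where the epithelial genes were low, and to 43.9 CPM in that of section 2. Ependymal markers were at 10.0 and 95.4 CPM in those regions, and their part in the levels of the 10 genes was not tested.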
